A study of Mus musculus with 6 samples.

Results

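The nuclear-encoded genes of the respiratory chain and ATP synthase were taken by symbol from the tables of counts around the start of transcription (TSS), within the gene body and around the end of transcription (TES). Symbols starting with Nduf, Sdh followed by a, b, c or d, Uqcr, Cox4i, Cox5, Cox6, Cox7, Cox8 or Atp5 gave 91 of the 12718 genes. They comprised 35 subunit genes of complex I, 4 of complex II, 8 of complex III, 16 of complex IV, 17 of complex V (the ATP synthase) and 11 assembly factors, 8 for complex I and 3 for complex II. Ndufa4 and Ndufa4l2 were placed with complex IV, where the Ndufa4 protein is known to sit. All 91 passed the filter on low counts in the TSS and gene body tables, and 90 did so in the TES table.

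RPB1, the catalytic subunit of RNA polymerase II, was pulled down through its N-terminal domain, and the DNA that came with it was sequenced (ChIP-seq). The adrenal glands came from female mice of the 129 sv X CD1 background aged 10 to 14 months, 3 of genotype WT and 3 of genotype Armc5(-/-), called knockout here. The labels give 6 different mouse numbers and no treatment, and name no promoter or Cre for the deletion. Levels are CPM, counts set to a common TMM-scaled library total within a region's table, so they compare a region between libraries but do not compare a TSS level with a gene body level.

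Electrons from NADH enter the respiratory chain at complex I and those from succinate at complex II. They pass through complex III to complex IV, which reduces oxygen, while complexes I, III and IV pump the protons that drive the ATP synthase. A few subunits are encoded in mitochondrial DNA, and the genes described here supply the rest, with the factors that put them together. In the adrenal cortex mitochondria also hold the first and last steps of steroid synthesis, and in the medulla inherited loss of complex II genes is a known cause of phaeochromocytoma. Many promoters of respiratory genes in other tissues carry sites for the factors NRF1, GABP (of the ETS family), YY1 and ERR, which is why their letters were searched below.

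Library totals over the 3 regions ranged from 14511177 to 28190157 counts. The 3 lowest totals belonged to knockout replicate 1 and WT replicates 1 and 2, called the low-total libraries, and the 3 highest to WT replicate 3 and knockout replicates 2 and 3, the high-total ones. All 9 adrenal cortex markers and all 6 chromaffin markers looked for were in the tables. Their summed gene body levels ranged over the libraries from 1697 to 3852 CPM in WT and 2471 to 3078 CPM in knockout for the cortex, and from 186 to 399 CPM and 257 to 777 CPM for the medulla. The 3 capsule and fibroblast markers analysed summed to 92.2 to 279 CPM in WT and 67.5 to 79.7 CPM in knockout, and 2 of them, Pdgfra and Mgp, fell at the TES (edgeR adjusted p = 0.000538 and 0.00033). Their part in the results below was not tested, and in whole glands fewer cells of a type cannot be told apart from less polymerase per cell.

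In WT glands the members' median polymerase level was above that of all genes at the TSS, at the TES and per kilobase of gene body. Their median TSS level was 72.5 CPM against 54.3 CPM for all genes, and 61 of 91 (67.0%) lay above that all-gene median. Per kilobase of annotated gene their gene body level had a median of 3.29 CPM against 1.73 CPM, with 77 of 91 (84.6%) above and 24 (26.4%) in the top 10% of all genes. Without the correction for length the order turned, with 23.0 CPM per gene body against 42.8 CPM. The members are short genes, and their median annotated length was 7394 bp, against 22906 bp for all genes. No comparison with genes of similar length was made, and the interval counted as gene body is not given in the sources used here. At the TES the medians were 66.5 and 48.3 CPM.

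**Figure D1:**
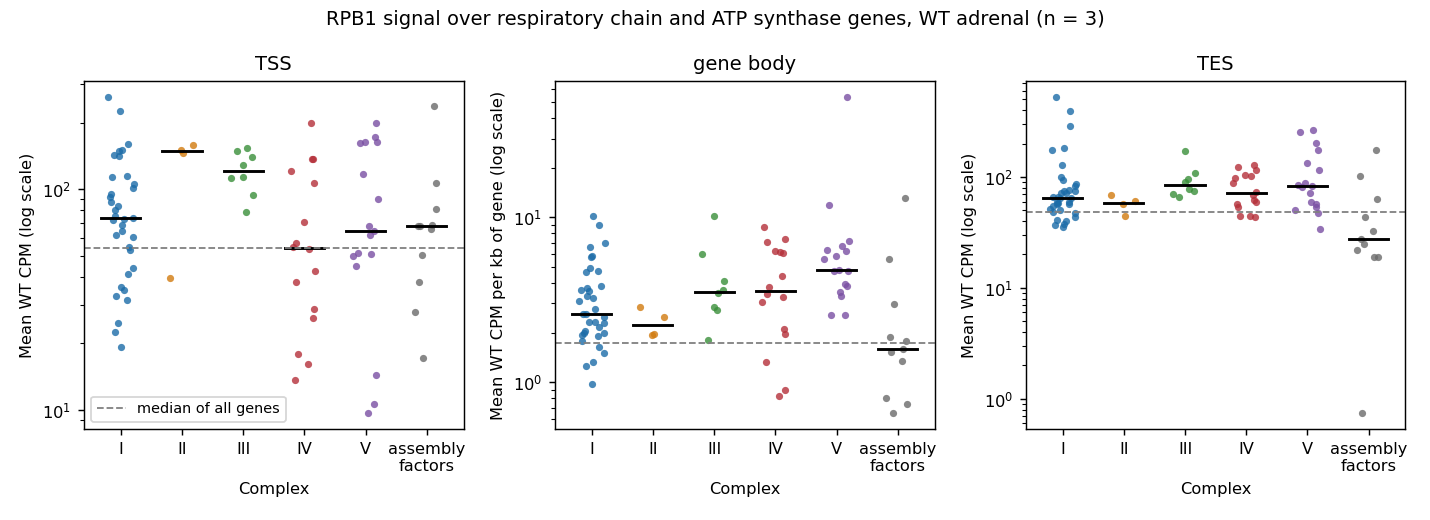
Mean WT level (n = 3, log axis) of each gene by complex, as CPM at the TSS and TES and as CPM per kilobase in the gene body, with a bar at each complex's median and a dashed line at the median of all genes. Every gene of complex V lies above the line in the gene body panel, and the lowest TES point is Ndufaf2 at 0.737 CPM.

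The complexes differed in where the signal lay. Complex II and complex III had the highest TSS medians, 148 and 121 CPM, followed by complex I at 73.7, the assembly factors at 68.3, complex V at 64.8 and complex IV at 54.0 CPM. Per kilobase of gene body the order was another, and complex V led with a median of 4.77 CPM. Then came complex IV at 3.59, III at 3.55, I at 2.59, II at 2.22 and the assembly factors at 1.59 CPM. Median annotated lengths were 19706 bp for complex II and 10947 bp for the assembly factors, against 4890 to 7798 bp for the others. The part of length in this order was not tested. All 17 genes of complex V, all 8 of complex III and all 4 of complex II were above the all-gene median per kilobase, against 5 of the 11 assembly factors. Across the 91 genes the rank correlation of TSS level with gene body level per kilobase was 0.10, and that of TES level with it 0.60. Over the 12523 genes with a length the same correlations were 0.47 and 0.67. These are descriptions across genes of the same 3 WT libraries, and genes are not independent replicates.

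Promoter sequence was available from RefSeq (GRCm38.p6) for 77 of the 91 genes, as 82 windows from 250 bp before to 50 bp after a start. The NRF1 letters, GCGCA then any base then GCGC, searched on both strands like the other strings, were in 26.8% of these windows and in 9.92% of 12350 windows of all genes in the tables. The ETS letters CCGGAAG were in 25.6% against 17.2%, the YY1 letters AANATGGCG in 14.6% against 4.85%, and the ERR letters AAGGTCA in 9.76% against 3.09%. At least 1 of the NRF1, ETS and YY1 strings was present in 56.1% of member windows and 28.3% of all windows. The SP1 letters GGGCGG went the other way, 45.1% against 63.7%, while CCAAT (41.5% against 37.7%) and TATAAA (10.98% against 6.87%) were closer. A match is a description of the letters and not a measured binding site. The median TSS level was 81.0 CPM for the 21 genes with an NRF1 match and 68.3 CPM for the 56 without. For ERR these medians were 98.7 and 68.7 CPM, for CCAAT 75.5 and 63.3, for YY1 71.0 and 70.7, for ETS 68.5 and 73.0, for SP1 68.4 and 73.7, and for TATAAA 51.5 and 73.5 CPM, none of them tested.

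The stretches before the start of 6 genes are shown, 4 of them as examples of matches. Of these, Atp5h and Atp5j also share the stretch with a facing gene. The other 2 have no match in the bases shown, and their TSS values are described below. Each is given 5′ to 3′ on the gene's own strand, ends at the base before a start in the RefSeq promoter table, and has in capitals any NRF1, ETS or YY1 match on either strand. Atp5h (subunit d of the ATP synthase stalk) is shown from chr11:115419920-115420125, minus strand, the bases between its start and that of the facing gene Kctd2, whose outermost annotated bound lies nearer, at 175 bp. Atp5j (coupling factor 6 of the stalk) is shown from chr16:84834977-84835123, minus strand, the bases between the inner of its 2 starts in that table and the start of Gabpa, so the stretch lies within the outermost bounds of Atp5j. Gabpa encodes the DNA-binding subunit of GABP. Cox6a1 (chr5:115348959-115349138, minus strand) and Ndufb4 (chr16:37654369-37654568, minus strand) each hold several NRF1 strings. Cox7a1 (chr7:30184021-30184170, plus strand) and Atp5o (chr16:91931631-91931780, minus strand) hold none of these strings in the bases shown. The promoter window of Atp5o counted above does hold 1 NRF1 match, outside the bases shown.
Atp5h: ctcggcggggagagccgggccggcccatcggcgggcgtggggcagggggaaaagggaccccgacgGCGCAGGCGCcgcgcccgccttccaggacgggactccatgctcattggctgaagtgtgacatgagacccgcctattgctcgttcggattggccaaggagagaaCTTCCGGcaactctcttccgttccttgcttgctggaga
Atp5j: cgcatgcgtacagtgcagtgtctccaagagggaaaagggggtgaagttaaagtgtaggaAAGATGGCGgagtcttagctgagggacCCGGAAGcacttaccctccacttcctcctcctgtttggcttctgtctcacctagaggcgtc
Cox6a1: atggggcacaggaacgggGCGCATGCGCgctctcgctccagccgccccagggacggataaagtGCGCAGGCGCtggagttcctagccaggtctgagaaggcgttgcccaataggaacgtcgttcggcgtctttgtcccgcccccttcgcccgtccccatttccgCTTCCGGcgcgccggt
Ndufb4: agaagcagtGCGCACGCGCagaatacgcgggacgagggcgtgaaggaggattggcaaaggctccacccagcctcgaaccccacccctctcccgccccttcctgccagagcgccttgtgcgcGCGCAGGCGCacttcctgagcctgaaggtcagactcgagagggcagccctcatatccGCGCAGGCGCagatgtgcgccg
Cox7a1: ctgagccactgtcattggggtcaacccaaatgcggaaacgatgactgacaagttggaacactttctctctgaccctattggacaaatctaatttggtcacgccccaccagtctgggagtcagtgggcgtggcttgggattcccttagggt
Atp5o: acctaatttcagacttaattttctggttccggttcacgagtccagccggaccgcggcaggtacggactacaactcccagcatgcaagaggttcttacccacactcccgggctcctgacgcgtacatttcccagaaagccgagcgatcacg

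A near start on the other strand was more frequent among the members than among all genes with a promoter entry. Of the 77 genes with a promoter entry 27 (35.1%) had an opposite-strand start within 500 bp, against 20.6% of 9912 genes in the tables. For 24 of them and for Ndufs1, whose annotated bounds lie 9 bp from Eef1b2, both genes of the pair were in the tables. In 13 of these 25 pairs the 2 genes' mean WT TSS levels were within 1.25-fold of each other. The same share was not worked out for pairs of other genes. The TSS counts of such neighbours can come largely from the same reads, and the TSS value of either gene would then describe both starts. How far they did so was not tested. Ndufa4 and Phf14, with starts 379 bp apart, had nearly the same value in each library, 117, 116 and 130 CPM against 117, 114 and 129 CPM in WT. Ndufa7 and Rps28, a ribosomal protein gene 10 bp away, had means of 262 and 240 CPM, which made Ndufa7 the member with the highest TSS level. Atp5h and Kctd2 (199 and 168 CPM) and Ndufb11 and Rbm10 (75.5 and 68.8 CPM) were also within 1.25-fold, while Atp5j and Gabpa (118 and 90.2 CPM) were not.

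**Figure D2:**
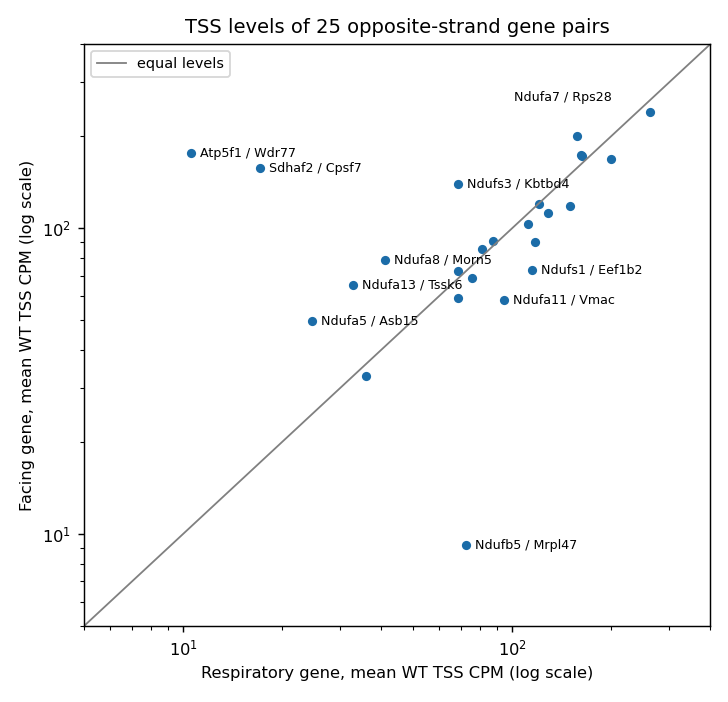
Mean WT TSS CPM (n = 3, log axes) of the facing gene against that of the respiratory gene for 25 pairs with opposite-strand starts. Of these 13 lie within 1.25-fold of the line of equal levels, and 3 lie over 5-fold away from it.

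Other pairs were far apart in level in spite of near starts. Atp5f1 (subunit b of the stalk) had 10.6 CPM and its neighbour Wdr77, 235 bp away, 176 CPM. Sdhaf2, which helps to insert FAD into Sdha, had 17.2 CPM against 157 CPM for Cpsf7 at 35 bp, and Ndufb5 had 72.5 CPM against 9.18 CPM for Mrpl47. The window that the authors counted around each start is not given in the sources used here. Atp5f1 and Sdhaf2 had 65.0 and 73.3 CPM in the gene body, at the 65.4th and 69.3rd percentile of all genes.

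Complex I takes electrons from NADH through flavin and iron-sulfur subunits. Ndufs1, its largest iron-sulfur subunit, had 113, 108 and 124 CPM at the TSS in WT replicates 1, 2 and 3, against 169, 184 and 190 CPM in knockout. The groups did not overlap and the log2 fold change was 0.65 ± 0.15 (SE, n = 3 per group), but it did not pass over all genes (edgeR adjusted p = 0.147). The facing gene Eef1b2 had 64.8, 79.6 and 73.9 CPM in WT, against 83.3, 63.5 and 74.3 CPM in knockout, so its groups overlapped. In the Ndufs1 gene body the order was turned, with 59.5, 62.8 and 68.2 CPM in WT, against 55.5, 58.5 and 57.7 CPM in knockout (log2 fold change -0.15 ± 0.13, adjusted p = 0.934). The TSS to gene body ratio was accordingly higher in every knockout library, by 0.80 ± 0.17 on the log2 scale, with an edgeR adjusted p of 0.596. With DESeq2, and in edgeR with the low-total libraries marked by a covariate, the TSS difference passed (adjusted p = 0.0398 and 0.0101), and over all alternatives its adjusted p ranged from 0.0101 to 0.669.

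Ndufv1, the NADH-binding flavoprotein, had 49.0, 39.3 and 16.96 CPM at the TSS in WT, against 65.8, 22.7 and 22.3 CPM in knockout. Its values separated the 3 low-total libraries, which were higher, from the 3 high-total ones, and did not separate the genotypes. The other core subunits ranged at the TSS from 19.3 CPM for Ndufs7 to 160 CPM for Ndufv2 in WT, and none of the 6 passed in any region. Among the 29 accessory subunits Ndufa6 had the highest gene body level of complex I per kilobase (10.1 ± 4.42 CPM, SD, n = 3) and Ndufa1, an X-linked membrane subunit, the lowest (0.98 ± 0.18 CPM). Ndufv3, the second smallest p upward at the TSS, had 73.5 ± 13.1 CPM in WT and 87.1 ± 8.63 CPM in knockout, with overlapping groups.

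For 4 subunits of the proton-pumping membrane arm the TES values are given, and none of the 4 passed. Ndufb8 had 45.5, 64.7 and 68.2 CPM at the TES in WT, against 40.6, 39.3 and 32.9 CPM in knockout, a log2 difference of -0.66 ± 0.23 (edgeR adjusted p = 0.275). Ndufb11, also X-linked, had 46.1, 63.7 and 60.8 CPM in WT, against 39.9, 37.9 and 41.3 CPM in knockout (-0.51 ± 0.23, adjusted p = 0.593). In both genes every knockout library was below every WT library at the TES, while TSS and gene body groups overlapped. Ndufb6 went the other way, with 572, 376 and 633 CPM in WT, against 719, 883 and 695 CPM in knockout (0.54 ± 0.29, adjusted p = 0.792). Ndufb10 had 395, 319 and 475 CPM in WT, against 501, 603 and 566 CPM in knockout (0.49 ± 0.28, adjusted p = 0.829).

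Those 2 genes had the highest TES levels of all members, at the 99.4th and 98.7th percentile of all genes, next to gene bodies at the 19.5th and 24.3rd. These gene body percentiles are not corrected for length. Per kilobase the gene body of Ndufb6 was at the 58.7th percentile and that of Ndufb10 at the 95.8th. The annotated end of Ndufb10 lies near another gene, since Rps2 is 133 bp from its bounds, and Topors starts 750 bp from the end of Ndufb6. Reads of a neighbour can fall into such an end window, and how much they gave here was not tested. Ndufc1, a small membrane-arm subunit, had in its gene body 23.2, 16.95 and 32.6 CPM in WT, against 31.7, 38.2 and 33.2 CPM in knockout (0.50 ± 0.24, adjusted p = 0.934), and its groups overlapped. Ndufa9, an accessory subunit near the quinone site, had 37.7, 35.0 and 36.5 CPM in WT, against 32.6, 26.1 and 29.3 CPM in knockout in the gene body (-0.31 ± 0.15, adjusted p = 0.934), with every knockout library lower. Its TES to gene body ratio was higher in every knockout library, by 0.47 ± 0.23 (adjusted p = 0.839).

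Complex II has 4 subunits, and Sdha (flavoprotein), Sdhc and Sdhd (membrane anchors) had similar TSS levels of 158 ± 23.3, 146 ± 29.8 and 150 ± 45.9 CPM in WT (SD, n = 3). Sdhb, the iron-sulfur subunit, stood apart with 43.6, 46.5 and 28.5 CPM in WT, against 55.1, 17.8 and 13.9 CPM in knockout, and again the low-total libraries were the higher ones. In the gene body per kilobase the 4 lay close together, from 1.93 ± 0.10 CPM for Sdhd to 2.87 ± 0.75 CPM for Sdhb. Sdhc at the TES had 41.4, 55.9 and 37.2 CPM in WT, against 34.5, 31.1 and 23.1 CPM in knockout (log2 difference -0.59 ± 0.26, edgeR adjusted p = 0.604). All 4 had negative fitted log2 fold changes in the gene body, of -0.21 to -0.04, with adjusted p-values of 0.934 or more.

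Complex III genes were the most even set at the promoter. All 8 lay above the all-gene TSS median, from 78.8 ± 13.0 CPM for Uqcrc1, a core protein, to 154 ± 21.6 CPM for Uqcr11, a small subunit (SD, n = 3). Uqcrfs1, the Rieske iron-sulfur protein, had 140 ± 15.2 CPM. Per kilobase of gene body Uqcrq led with 10.2 ± 2.05 CPM and Uqcrc2, the other core protein, came last with 1.81 ± 0.15 CPM. Against knockout Uqcrc1 had the largest TSS difference, from 78.4, 92.0 and 65.9 CPM to 76.0, 46.3 and 44.3 CPM (-0.51 ± 0.24, edgeR adjusted p = 0.913), and its groups overlapped.

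Complex IV combines common subunits with isoforms that belong to particular tissues. The 11 common genes had a median TSS level of 70.7 CPM and the 5 tissue isoforms one of 18.0 CPM. Cox4i1 had 199 ± 40.0 CPM at the TSS in WT and Cox4i2, the lung and hypoxia isoform, 13.7 ± 3.89 CPM. Per kilobase of gene body the same pair had 4.41 ± 1.49 and 1.32 ± 0.36 CPM. Cox8a and Cox8b, the heart and muscle form, had 70.7 ± 8.06 and 18.0 ± 5.92 CPM at the TSS, and 6.25 ± 1.06 and 3.75 ± 1.07 CPM per kilobase. Ndufa4 and Ndufa4l2, a known target of hypoxia-inducible factor, had 3.07 ± 0.75 and 0.83 ± 0.29 CPM per kilobase.

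The remaining isoform pairs kept that order at the TSS, while per kilobase of gene body they were nearly level or turned. Cox6b1 and the testis form Cox6b2 had 56.8 ± 13.4 and 26.2 ± 9.66 CPM at the TSS but 3.42 ± 0.59 and 3.29 ± 0.91 CPM per kilobase of gene body, less than the spread apart. For the Cox7a genes the gene body order per kilobase was turned. Cox7a2 had 0.90 ± 0.17 CPM per kilobase, while Cox7a1, the heart, muscle and brown fat form, had 8.72 ± 2.41 CPM, the highest value of complex IV. This order rests largely on the lengths used, 16182 bp for Cox7a2 and 1860 bp for Cox7a1. Without the correction for length the gene bodies held 11.8 to 17.4 and 12.2 to 21.4 CPM over the 6 libraries. The bounds of Cox7a2 (79755241-79771422) overlap Tmem30a, and its start in the RefSeq promoter table (79759853) lies inside them. At the TSS Cox7a2 was the higher, with 106 ± 10.6 CPM against 54.5 ± 6.12 CPM. Capns1 lies 904 bp from the bounds of Cox7a1, whose annotated length is only 1860 bp, and the share of its counts from beyond the gene was not tested. Of the brown fat markers Elovl3 and Ppara were analysed here and summed to 52.4 to 84.0 CPM in WT and 47.4 to 62.4 CPM in knockout gene bodies. Of the muscle markers Actn3 was analysed, with 16.0 to 24.9 and 20.9 to 24.8 CPM. Cox6a1 had 136 ± 21.9 CPM at the TSS, and Cox6a2, Cox7a2l and Cox8c were not analysed here.

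At the TSS Cox7a1 had 56.6, 47.5 and 59.2 CPM in WT, against 38.8, 41.1 and 39.2 CPM in knockout. The groups did not overlap, and the log2 fold change of -0.47 ± 0.19 did not pass (edgeR adjusted p = 0.824). Cox8b (14.7, 24.8 and 14.4 CPM against 11.8, 10.7 and 13.2 CPM), Cox7a2 (log2 fold change -0.27 ± 0.15) and Ndufa4 (-0.28 ± 0.15) were also lower in every knockout library at the TSS. That made 4 of the 16 complex IV genes (25%), all lower, against 4.94% of all tested genes with every knockout library lower. Over all 91 members 5 had this order at the TSS, the remaining one being Atp5o of complex V, and complex IV was singled out after its values were seen. None of the 4 passed the test, and the start of Ndufa4 lies 379 bp from that of Phf14. Cox5b in the gene body, 12.2, 8.89 and 14.3 CPM in WT, against 13.3, 21.7 and 18.7 CPM in knockout, had the largest positive gene body change among the members (0.60 ± 0.25, adjusted p = 0.934), and its groups overlapped. Cox4i2 had the most negative one, from 10.7, 14.9 and 18.7 CPM to 10.9, 10.0 and 11.98 CPM (-0.43 ± 0.23, adjusted p = 0.934).

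The ATP synthase consists of the catalytic F1 head, the membrane rotor and the stalk that holds the head in place. Atp5b, the catalytic beta subunit, had 171 ± 2.35 CPM at the TSS and 6.21 ± 0.95 CPM per kilobase of gene body in WT. The 3 genes for the rotor's subunit c make the same mature protein, and they differed at the TSS, with 163 ± 18.1 CPM for Atp5g3, 89.7 ± 2.53 CPM for Atp5g1 and 45.03 ± 10.8 CPM for Atp5g2. Per kilobase they had 5.85 ± 1.55, 7.13 ± 2.47 and 6.34 ± 1.31 CPM, within the spread between libraries. Atp5mpl, a small membrane subunit, had the lowest gene body level of the complex with 2.54 ± 0.42 CPM per kilobase.

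Atp5o, the subunit that joins stalk and head, had by far the highest gene body level of the 91 genes next to a low TSS level. Its gene body held 344 ± 33.2 CPM in WT, or 53.7 ± 5.18 CPM per kilobase, at the 99.9th percentile of all genes, and the next member, Ndufaf3, had 13.1 CPM per kilobase. Its TSS level of 14.4 ± 2.79 CPM was at the 16.0th percentile. With a length of 6408 bp (chromosome 16, GRCm38.p6) it is shorter than the median member, and whether the interval that the authors counted held the same bases is not given in the sources used here. In single libraries the TSS level was 13.1, 17.6 and 12.5 CPM in WT, against 5.06, 6.02 and 3.29 CPM in knockout, from 9 to 39 counts each. This was the largest fold change among the members (log2 -1.54 ± 0.42, every knockout library lower), and it did not pass (edgeR adjusted p = 0.358, 0.146 to 1.00 over the alternatives). The Atp5o gene body had 329, 382 and 321 CPM in WT, against 331, 314 and 314 CPM in knockout, with overlapping groups. The change of its TSS to gene body ratio was -1.44 ± 0.28 on the log2 scale (adjusted p = 0.596).

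**Figure D3:**
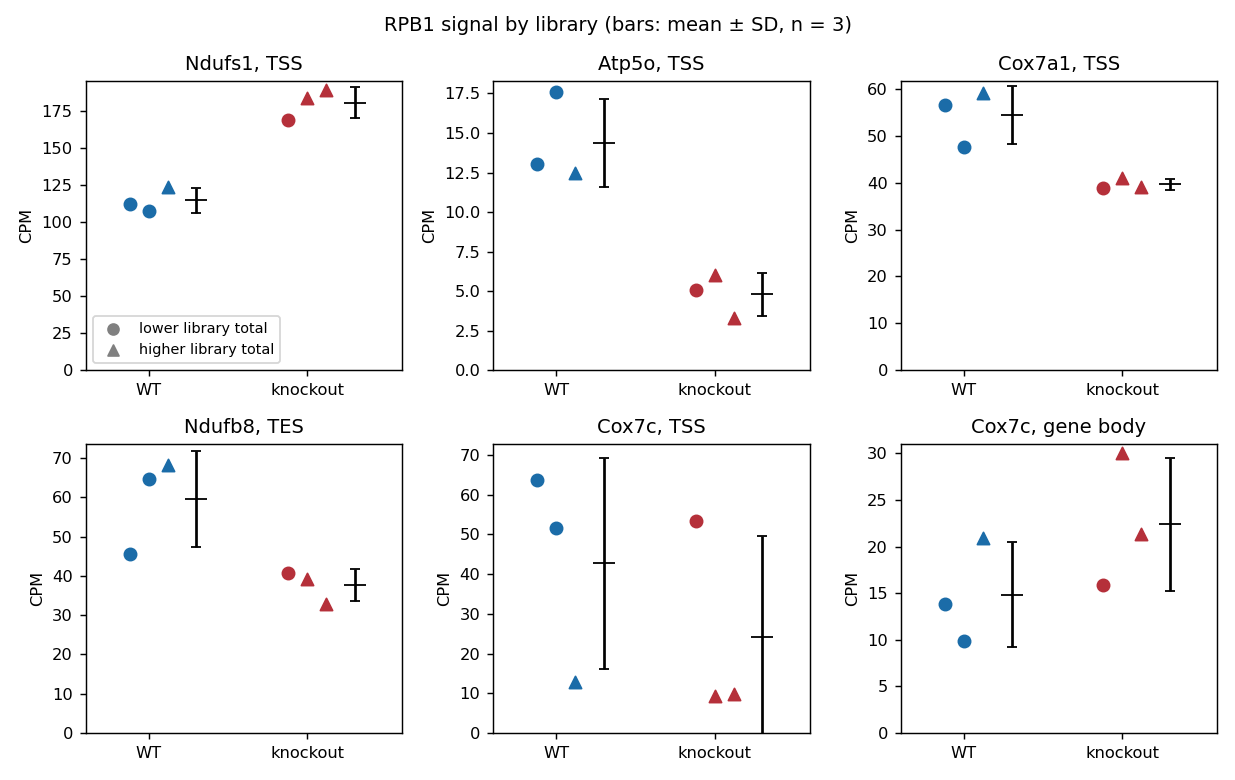
CPM in each library for 5 genes in the named region, WT in blue and knockout in red, circles for the 3 low-total and triangles for the 3 high-total libraries, with mean ± SD beside each group (n = 3). Ndufs1 at the TSS is higher in every knockout library, Atp5o and Cox7a1 at the TSS and Ndufb8 at the TES are lower in every one, and Cox7c separates circles from triangles in both of its panels.

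The gene body levels of the assembly factors were spread widely. Per kilobase Ndufaf3 and Ndufaf8 were in the top 10% of all genes, and Sdhaf3 and Ndufaf5 in the lowest 10%. Ndufaf3, a complex I factor, had the second highest TSS level of all members (238 ± 6.97 CPM, SD, n = 3). Ndufaf2, a complex I chaperone spread over 106064 bp, had 163 ± 29.9 CPM in the gene body and almost nothing at its TES, 1.77, 0 and 0.44 CPM in WT, against 3.07, 0 and 1.97 CPM in knockout (at most 4 counts a library), and was the gene left out of the TES test. Ndufaf4 had a TSS to gene body ratio that was higher in every knockout library, by 0.45 ± 0.24 on the log2 scale (edgeR adjusted p = 0.955). Sdhaf4, a complex II factor, had 18.3, 22.5 and 15.7 CPM at the TES in WT, against 30.7, 26.1 and 24.6 CPM in knockout (0.54 ± 0.37, adjusted p = 0.929).

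The profile along the genes varied with their length. The log2 ratio of TSS to gene body counts in WT had a median of -1.47 over the members and -2.97 over all genes. For TES to gene body the medians were -1.69 and -3.17. Once the gene body count was divided by gene length in kilobases, the medians were 1.28 for members and 1.49 for all genes at the TSS, and 1.06 and 1.36 at the TES, so the gap was smaller and turned. The rank correlation of the TSS ratio with length was -0.57 over the 91 members and -0.70 over 12523 genes. This is a description, and the gene body count in the ratio is not corrected for length. In 6 members (6.59%), among them Ndufa2, Atp5h and Uqcr11, the TSS window held more counts than the whole gene body, against 1.89% of all genes. The TES window held more counts than the TSS window in 39 of 91 members (42.9%, against 45.3% of all genes), and in 11 of the 16 genes of complex IV.

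**Figure D4:**
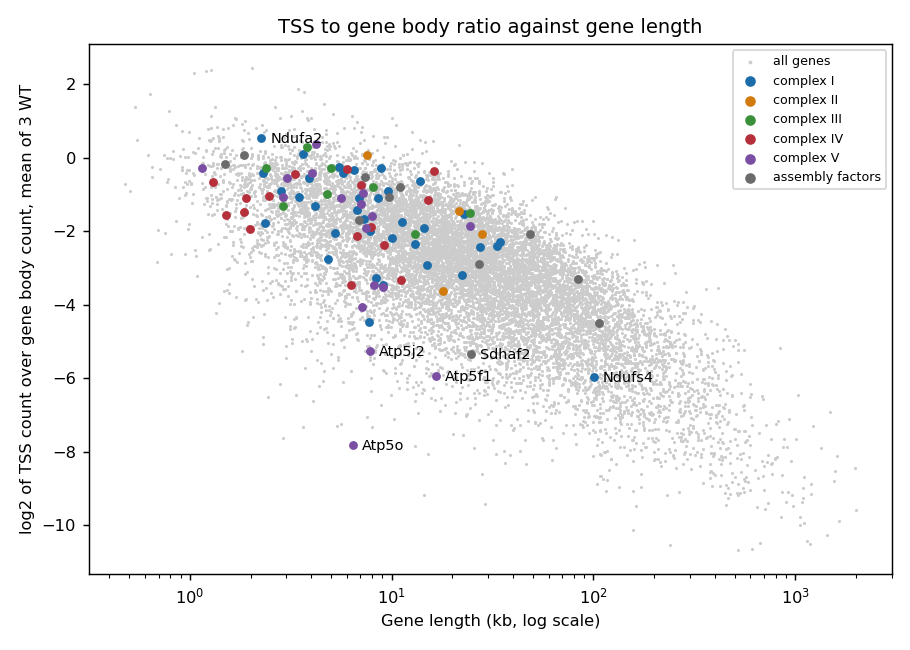
Mean over 3 WT libraries of the log2 ratio of TSS to gene body counts against annotated gene length (log axis), with all genes in grey and the members coloured by complex. The members follow the fall of the ratio with length (rank correlation -0.57), and Atp5o at -7.81 lies far below genes of its length.

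Between genotypes no member passed the test at an adjusted p under 0.05. At the TSS edgeR called 0 of 91 members, against 0.339% of all tested genes, with 3 members at an unadjusted p under 0.05 (5.57% of all genes were). In the gene body it called 0 of 91 against 0.252%, with 1 member at that unadjusted level, Cox5b, against 5.05%. At the TES it called 0 of 90 against 0.915%, with 3 members, Ndufb8, Ndufb11 and Sdhc, against 6.85%. DESeq2 called 1 member at the TSS, Ndufs1, and 0 in the other regions, and limma-voom called 0 in all 3. With so low a share of genes called, 0 of 91 is near the background.

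The members' medians stayed close to those of all genes. The median log2 fold change was -0.053 at the TSS against -0.01 for all genes, 0.08 against -0.02 for gene bodies, and -0.03 against -0.02 at the TES. The groups did not overlap in 6 members at the TSS (6.59%, against 11.4% of all genes), 12 for gene bodies (13.2% against 10.4%) and 11 at the TES (12.2% against 11.5%). At the TSS 34 fold changes were above 0 and 57 below (48.4% of all genes were above). The gene body had 54 above and 37 below (46.3%), and the TES had 37 above and 53 below (47.8%). By complex the TSS medians ran from -0.19 (III) through -0.10 (IV and V) and -0.03 (I) to 0.03 (assembly factors) and 0.04 (II). In the gene body complexes III (0.17), I (0.13) and IV (0.11) were highest, and complex II and the assembly factors (both -0.09) lowest. Differences over 1.5-fold were fitted for 6 members at the TSS (6.59%, against 8.78% of all tested genes), 2 in gene bodies, Cox5b and Cox7c (2.198% against 4.17%), and 2 at the TES, Ndufb8 and Sdhc (2.22% against 9.01%).

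**Figure D5:**
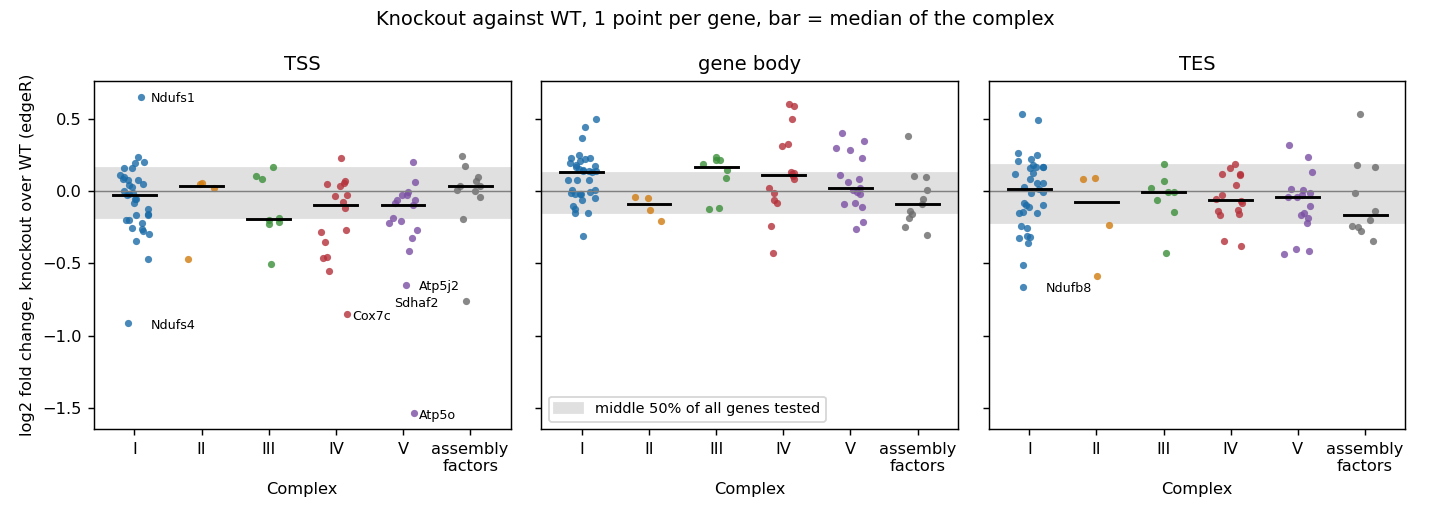
Fitted log2 fold change, knockout over WT, of each member by complex and region (n = 3 per group), with a bar at each complex's median and a grey band for the middle 50% of all genes tested. Most members lie within or near the band, and Atp5o at -1.54 and Ndufs1 at 0.65 are the extremes at the TSS.

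The distribution along the gene, tested as the interaction of region and genotype, changed in 0 members by edgeR. For TSS to gene body 0% of all 12679 tested genes were called, 3 members were at an unadjusted p under 0.05 (3.64% of all genes), and the median change was -0.15 (all genes -0.02). For TES to gene body 0.0158% of all genes were called, 6 members were at that unadjusted level (5.7%), and the median was -0.13 (all genes -0.01). Groups did not overlap in 9 members for the first ratio (9.89% against 9.46%) and in 16 for the second (17.8% against 12.2%). The limma test of both log2 ratios called 0 members as well. Besides the genes given above, Ndufc1 had the smallest p after Atp5o among negative TSS ratio changes (-0.83 ± 0.27, edgeR adjusted p = 0.955). Among negative TES ratio changes Cox7c (-0.66 ± 0.23) and Atp5k, a membrane subunit of the ATP synthase (-0.73 ± 0.29), had the smallest p (adjusted p = 0.793 and 0.839). Among positive ones it was Ndufb6 (0.57 ± 0.25, adjusted p = 0.839).

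More members separated the low-total from the high-total libraries than separated the genotypes. In the gene body 43 of 91 members (47.3%) had all 3 low-total libraries below all 3 high-total ones, against 20.5% of all genes, and 6 members (6.59%) had the opposite order, against 20.6%. At the TSS 25 members (27.5%) were higher in all low-total libraries, against 17.7% of all genes, and 18 (19.8%) were lower, against 15.7%. Cox7c, a common subunit of complex IV, showed both: at the TSS it had 51.7 to 63.7 CPM in the low-total and 9.30 to 12.8 CPM in the high-total libraries, and in the gene body 9.82 to 15.8 CPM and 20.9 to 30.0 CPM. Ndufa5 (32.7 to 46.1 against 4.16 to 9.15 CPM) and Ndufs4 (22.5 to 33.1 against 6.57 to 7.68 CPM) did the same at the TSS. The groups of libraries hold both genotypes, 2 WT and 1 knockout against 1 WT and 2 knockout. For the gene body median the genotype and this division of the libraries therefore cannot be told apart fully. Whether the division reflects the totals or another property of the libraries was not tested. The same limit holds for the median changes of both ratios, which use the gene body counts. With that division as a covariate the gene body median was -0.01 in place of 0.08, and without WT replicate 2 it was -0.03 and without WT replicate 3 it was 0.19. Over the 77 genes with a promoter entry the rank correlation of the TSS difference between these libraries with promoter GC content was -0.16, and over 9912 genes -0.14.

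In the gene lists around the respiratory chain no gene passed the test. Of 37 further assembly factors 35 were in the tables, and their median log2 fold changes were -0.02, -0.02 and 0.01 for TSS, gene body and TES. The carriers and coenzyme Q synthesis genes (19 in the tables) had -0.05, 0.05 and 0.00, the regulators of mitochondrial genes such as Nrf1, Gabpa and Tfam (15 genes) -0.09, 0.04 and -0.12, and the citric acid cycle genes (17 genes) -0.02, -0.06 and -0.02. By edgeR 0 genes of these 4 lists passed in any region or ratio, with at most 2 of a list at an unadjusted p under 0.05.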

How the data were processed

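The authors deposited whole-number read counts per gene and library for the TSS, gene body and TES, and a joint table that repeats them (0 cells differ). Per the submitters' processing notes limma, edgeR, HOMER and MACS2 were used, as were Picard, BWA, Trimmomatic and bcl2fastq 2.20, with mm10 and GRCm38 named as builds. The sources used here do not give window widths, read filters, the input control or the counting tool. Counts over both strands of overlapping or neighbouring genes can share reads.

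From these counts each table of 12718 genes went through edgeR 4.0.16 under R 4.3.3 (TMM scaling, filterByExpr with a minimum count of 10 and total of 15, quasi-likelihood F test with no covariate, Benjamini-Hochberg adjustment over all genes, threshold 0.05). Ratios were tested as a region by genotype interaction with the library as a block. The SE is the log2 fold change over the square root of F. WT ratios used a pseudocount of 0.5. Totals of 14511177 to 28190157 counts set the precision, and windows with few counts are the least precise. Lengths, neighbours and promoters came from RefSeq GRCm38.p6. Alternatives used DESeq2 1.42.0 and limma 3.58.1, other scalings, filters and covariates, and left out each library. The scripts were tested on simulated data.

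Groups came from the titles. The members and gene lists were chosen with earlier results of these data known. Genes were named by smallest p per region and direction, by highest and lowest WT level per complex, as isoform sets and as catalytic cores; the rest were chosen after their values were seen. Armc5 and Th were not analysed here.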

Additional observations from a re-analysis of the deposited data

How the results depend on the processing

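Of 130 recomputed main results 124 kept their direction and side of the threshold. The count of members called at the TSS, 0 with edgeR, was 1 with DESeq2 and 1 with the low-total libraries as a covariate, in both cases Ndufs1, and 0 in each of the 6 fits that left out 1 library. The median member log2 fold change at the TSS was 0.052 with table totals only (all genes 0.09) and 0.21 with scaling by the 3 regions together (all genes 0.24), so it stayed slightly below the median of all genes. With CPM of each table in place of counts the WT log2 ratios were 1.74 for TSS to gene body (all genes 0.26) and 1.68 for TES to gene body (all genes 0.23), a change of unit. Leaving out each library in turn gave median fold changes of -0.08 to -0.04 (TSS), -0.03 to 0.19 (gene body) and -0.14 to 0.10 (TES), and WT ratios of -1.48 to -1.38 and -1.81 to -1.66. In the gene body the value fell to -0.03 without WT replicate 2 and at the TES it was 0.10 without WT replicate 3, so these medians rest on single libraries. Without a filter, with 20 counts in 3 libraries and with RLE scaling the counts of called members stayed at 0.

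Replicate numbers were not taken as pairs, since the labels state no pairing. Deviations of same-numbered libraries correlated at 0.44, -0.21 and 0.35 (TSS), 0.08, -0.59 and 0.27 (gene body) and 0.04, -0.32 and 0.20 (TES). In each region the best partner of WT replicates 1 and 2 was knockout replicate 1. Only WT replicate 1 and knockout replicate 1 have mouse numbers that start with C. With 3 libraries per genotype these values cannot decide whether libraries were paired. With the replicate block 0 members were called in any region or ratio, the medians were -0.05, 0.08 and -0.03, and the adjusted p of Ndufs1 at the TSS was 0.0522. Depth limits the windows with few counts, such as Ndufaf2 at the TES (at most 4 a library) and Atp5o at the TSS (9 to 39).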
